A study of Mus musculus with 10 samples.

Results

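The levels of 10 genes subject to genomic imprinting outside the Dlk1-Dio3 cluster were followed in RNA-seq libraries: H19, Igf2, Igf2r, Airn, Peg3, Snrpn, Kcnq1ot1, Cdkn1c, Impact and Nnat. They were chosen by name, as the Ensembl genes that GENCODE vM21 gives these symbols, and all 10 were found among the 55487 genes of the tables. The series holds 10 samples in 6 groups, and compares R-loop mapping methods in E14, a mouse embryonic stem cell line. Values here come from its RNA-seq group, 3 replicates of E14 cells for which the labels name no genetic change. All cells were cultured with 15% fetal bovine serum, LIF, a GSK inhibitor at 3 µM and an inhibitor of MEK1/2 at 1 µM. The other 7 samples map R-loops and are not analysed here. The labels do not say whether the replicates are separate cultures, so their spread may be technical.

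An imprinted gene is transcribed from the copy inherited from one parent and silenced on the other. The mark that separates the copies is usually DNA methylation laid down in the egg or the sperm at an imprinting control region, and kept afterwards by the zinc finger protein ZFP57, its partner TRIM28 and the methyltransferase DNMT1. Imprinted genes lie in clusters, where a long noncoding RNA or an insulator bound by CTCF often acts on the neighbours. Many of them regulate fetal growth, and imprints are known to be unstable in cultured embryonic stem cells. The tables sum both parental copies, so the levels below do not say which copy was transcribed.

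Promoter windows are shown for 6 of the genes because the maternal methylation marks of Peg3, Snrpn, Kcnq1ot1, Airn and Nnat lie at or near their starts. A further reason was that the annotated RNAs of Igf2r and Airn, on opposite strands of one locus, had very different levels. Whether the number of CpG bears on these levels was not tested. RefSeq windows (GRCm38.p6, 250 bases before to 50 after a start) matched 7 of the 10 genes. H19, Cdkn1c and Impact had no entry. The positions are chr17:12769657-12769956 (minus strand) for Igf2r, chr17:12741061-12741360 (plus) for Airn, chr7:143296498-143296797 (minus) for Kcnq1ot1, chr7:60005150-60005449 (minus) for Snrpn, chr7:6730370-6730669 (minus) for Peg3 and chr2:157559828-157560127 (plus) for Nnat. Each is written 5′ to 3′ on the strand of its gene, and capitals mark CpG dinucleotides, the bases at which an imprint is written.
Igf2r: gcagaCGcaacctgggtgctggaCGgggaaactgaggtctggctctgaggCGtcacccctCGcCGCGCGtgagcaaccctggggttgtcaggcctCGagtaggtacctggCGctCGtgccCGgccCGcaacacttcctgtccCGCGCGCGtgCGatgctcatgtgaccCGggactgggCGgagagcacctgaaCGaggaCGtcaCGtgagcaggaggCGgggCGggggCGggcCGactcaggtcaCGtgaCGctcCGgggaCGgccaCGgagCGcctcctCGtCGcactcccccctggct
Airn: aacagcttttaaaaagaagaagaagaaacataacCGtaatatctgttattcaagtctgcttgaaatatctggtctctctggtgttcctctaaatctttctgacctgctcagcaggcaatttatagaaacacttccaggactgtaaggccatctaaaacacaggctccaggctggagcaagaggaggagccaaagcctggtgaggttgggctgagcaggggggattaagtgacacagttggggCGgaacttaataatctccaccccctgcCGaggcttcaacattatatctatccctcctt
Kcnq1ot1: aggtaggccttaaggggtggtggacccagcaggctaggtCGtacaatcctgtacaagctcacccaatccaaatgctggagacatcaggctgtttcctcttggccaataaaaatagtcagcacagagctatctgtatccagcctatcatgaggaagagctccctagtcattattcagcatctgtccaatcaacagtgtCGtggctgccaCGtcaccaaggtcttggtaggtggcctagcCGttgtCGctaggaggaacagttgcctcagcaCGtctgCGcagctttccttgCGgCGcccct
Snrpn: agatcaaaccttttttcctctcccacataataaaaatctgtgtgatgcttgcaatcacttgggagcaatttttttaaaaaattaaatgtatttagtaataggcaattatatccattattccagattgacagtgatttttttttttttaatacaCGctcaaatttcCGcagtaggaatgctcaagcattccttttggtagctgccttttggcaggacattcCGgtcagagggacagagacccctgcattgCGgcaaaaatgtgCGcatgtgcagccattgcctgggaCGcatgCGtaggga
Peg3: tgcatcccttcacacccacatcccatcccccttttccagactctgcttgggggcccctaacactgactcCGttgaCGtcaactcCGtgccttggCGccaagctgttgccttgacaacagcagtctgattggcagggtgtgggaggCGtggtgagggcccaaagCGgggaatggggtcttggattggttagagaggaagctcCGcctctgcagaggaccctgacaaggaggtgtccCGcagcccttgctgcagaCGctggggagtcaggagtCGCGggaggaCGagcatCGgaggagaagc
Nnat: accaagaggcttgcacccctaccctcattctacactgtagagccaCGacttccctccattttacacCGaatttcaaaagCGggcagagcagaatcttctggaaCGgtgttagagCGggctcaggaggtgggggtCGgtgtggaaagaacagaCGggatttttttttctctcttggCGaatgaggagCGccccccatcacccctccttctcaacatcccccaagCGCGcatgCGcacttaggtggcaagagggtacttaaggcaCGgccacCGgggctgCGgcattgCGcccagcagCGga

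The Igf2r window held 34 CpG and 70.7% G or C, and 92.3% of all 32851 mouse windows held fewer CpG. The Airn window held 3 CpG, and 23.3% of windows held fewer. Between them lay Nnat with 17 CpG, Peg3 with 13, Kcnq1ot1 with 9 and the Snrpn window shown with 7, against a median of 7 over all windows. The hexamer TGCCGC, the letters that ZFP57 recognises, was searched on both strands. It was present in 1 of the 4 Snrpn windows, the one shown, from base 249, in the Nnat window from base 278 and in 1 of the 4 Igf2 windows, 3 of the 13 windows of these genes, and in 11.6% of all windows. The letters GCCATNTT, a core of the YY1 motif, were in 0 of the 13 windows and in 6.05% of all windows. Bases farther than 250 before or 50 after a start were not searched. The counts of CpG and of both motifs therefore describe the windows, not the whole of a methylation mark. The Snrpn window shown is the one nearest the start of the counted transcript, and is shared with Snurf, which starts at the same base. The other 3 Snrpn windows, at starts farther upstream, held 2, 3 and 4 CpG and no TGCCGC. The start of Peg3 lies 164 bases from that of Usp29 on the other strand.

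The 10 genes divided into 5 with a mean of at least 1 TPM (a transcript level scaled for length and library) and 5 below it. The share of all genes at that level was 19.8%, and that of protein-coding genes 44.1%. Impact was highest at 39.5 ± 2.38 TPM (SD, n = 3), followed by Snrpn, Igf2r, Peg3 and Kcnq1ot1. Nnat and H19 lay just under the limit, Cdkn1c and Igf2 well under it, and Airn was close to 0. The ranges of Impact, Snrpn and Igf2r did not overlap from one to the next. Those of Igf2r and Peg3, of Peg3 and Kcnq1ot1, of Nnat and H19, and of Cdkn1c and Igf2 overlapped. The median log2(TPM + 1) of the 10 genes was 1.20 ± 0.26 (SD, n = 3), beside 0.00 over all genes and 0.53 ± 0.11 over protein-coding genes. The choice of scale mattered for 1 gene above all: by CPM, counts scaled for the library but not for length, Kcnq1ot1 ranked 1 instead of 5 and held 51.9% of the counts of the 10 genes. A mean of at least 1 CPM was reached by 9 of the 10 genes, all but Airn, and by 25.8% of all genes. Genes of effective length under 100 nt took 60.3% to 65.8% of the TPM of a library. With TPM rescaled without them 7 of the 10 genes reached 1 TPM, Nnat and H19 included. That rescaling multiplied the TPM of every remaining gene by 2.52 to 2.93. The share of all genes at 1 TPM on that scale is not given here, so the rise is not particular to these genes.

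**Figure D1:**
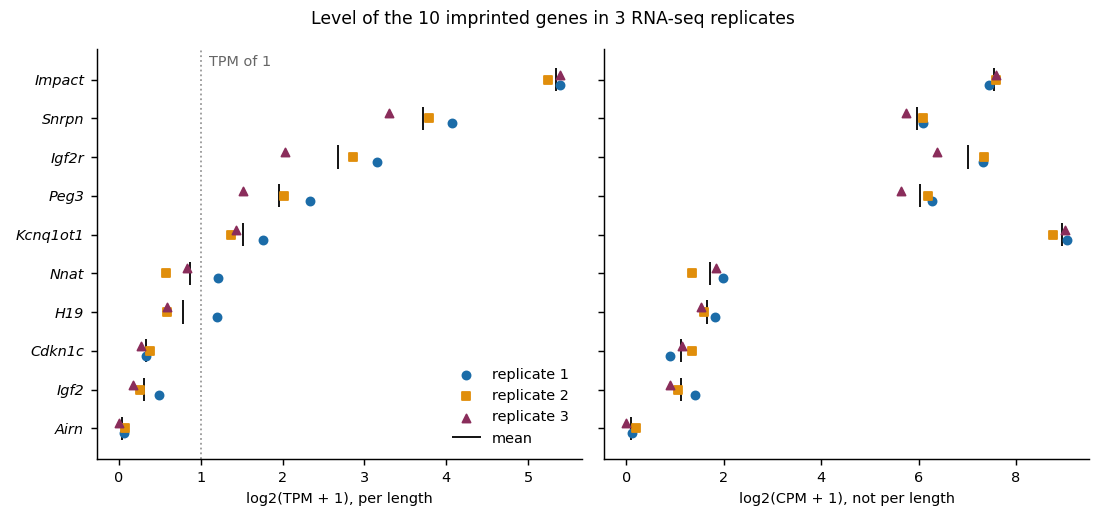
Level of each of the 10 genes in each replicate as log2(TPM + 1) on the left and log2(CPM + 1) on the right; points are replicates, bars the mean of 3, the dotted line a TPM of 1. Kcnq1ot1 is in the middle of the order per length and highest by CPM, and Airn is lowest on both.

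Among the noncoding RNAs, Kcnq1ot1 was the abundant one. It is an unspliced RNA transcribed from the paternal copy inside the gene Kcnq1, on the other strand, and silences neighbours in cis. Kcnq1ot1 (ENSMUSG00000101609, chromosome 7, 143203458 to 143296549 of GRCm38, minus strand) is annotated as 1 exon of 93092 nt. Its counts were 6051, 2799 and 2986 in replicates 1, 2 and 3, and its TPM 2.4, 1.59 and 1.69. By TPM replicate 1 was highest and replicates 2 and 3 were close. By CPM, at 529.8, 432.8 and 516.0, replicates 1 and 3 were instead close and replicate 2 was lowest. Divided by the length of 93092 nt, the counts gave a mean of 1.89 ± 0.442 TPM (SD, n = 3). Kcnq1 itself, a potassium channel gene, had 1 count in every replicate, and 0.13% of the exonic bases of Kcnq1ot1 overlap its exons.

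Airn is the paternal noncoding RNA that starts inside Igf2r and runs against it. Airn (ENSMUSG00000078247, chromosome 17, 12741311 to 12860136, plus strand) had 1, 1 and 0 counts, or 0.04, 0.05 and 0 TPM. A count of 0 among 5787357 allows up to 3 counts, or 0.518 CPM, in replicate 3. All 3 libraries were therefore at or under the floor of 3 counts. The 6 annotated transcripts are spliced, the longest of 1375 nt, so reads from an unspliced Airn outside these exons had no transcript to be counted on, and the low value speaks of the annotated forms only. No exonic base is shared between Airn and Igf2r.

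H19 is the maternal noncoding RNA next to Igf2 and the host of Mir675, which had 0 counts. H19 (ENSMUSG00000000031, chromosome 7, 142575529 to 142578143, minus strand) had 29, 13 and 11 counts, whose exact Poisson 95% intervals, covering counting error only, were 19.4 to 41.6, 6.92 to 22.2 and 5.49 to 19.7. Its TPM was 1.29, 0.5 and 0.5, a range of 2.58-fold, whereas its CPM of 2.54, 2.01 and 1.9 spanned 1.34-fold. Replicate 1 stood out per length and much less by CPM. The effective length behind the TPM was 826.15, 1373.74 and 1165.24 nt, since the tables weight the 7 annotated H19 transcripts anew in each library. With the mean effective length of each gene used in every replicate, a setting chosen after seeing the data, H19 had 0.919, 0.702 and 0.443 TPM.

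The growth regulators were led by Igf2r, the maternally expressed receptor that binds insulin-like growth factor 2 and carries it to lysosomes. Igf2r (ENSMUSG00000023830, chromosome 17, 12682406 to 12769664, minus strand) had 1810, 1040 and 477 counts and 7.9, 6.27 and 3.07 TPM. Replicates 1 and 2 lay near each other and replicate 3 lay well below both. Igf2, the paternally expressed growth factor itself (ENSMUSG00000048583, chromosome 7, 142650766 to 142666816, minus strand), had 19, 7 and 5 counts and 0.4, 0.2 and 0.13 TPM. Its mean of 0.243 ± 0.14 TPM (SD, n = 3) rests on so few counts that the intervals of all 3 replicates overlap. These are intervals of raw counts, from libraries of unlike depth. The record Gm49394 covers 62.8% of the exonic bases of Igf2 and had 0 counts.

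Cdkn1c encodes p57KIP2, an inhibitor of cyclin-dependent kinases that restrains growth, and is expressed from the maternal copy. Cdkn1c (ENSMUSG00000037664, chromosome 7, 143458339 to 143461050, minus strand) had 10, 10 and 7 counts and 0.26, 0.3 and 0.21 TPM, with a mean of 0.257 ± 0.0451 (SD, n = 3). The 3 replicates lay within 1.43-fold by TPM, whereas its CPM of 0.876, 1.55 and 1.21 spanned 1.77-fold. The effective length behind the TPM was 1423.0, 1753.74 and 1755.2 nt. The counting intervals overlapped, but these are of raw counts from libraries of unlike depth. An antisense record with 0 counts, Gm44732, shares 625 of its 2039 exonic bases. The other members of its family were higher in every replicate. Cdkn1a had 13.8 ± 4.61 TPM (SD, n = 3) and Cdkn1b 6.5 ± 1.49 TPM (SD, n = 3). Per length and over the pooled counts, Cdkn1c stood at 0.018 of Cdkn1a (95% interval 0.0118 to 0.0263, counting error only).

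The remaining 4 genes are paternally expressed. Impact encodes a regulator of the translation response to amino acid shortage, acting on the kinase activator GCN1. Impact (ENSMUSG00000024423, chromosome 18, 12955852 to 12992950, plus strand) had 1978, 1246 and 1109 counts and 40.9, 36.73 and 40.8 TPM. The TPM of its replicates lay within 1.11-fold of each other, and its mean was above that of 96.9% of protein-coding genes. Its effective length was 1784.01, 1786.21 and 1432.34 nt, and with the mean effective length in every replicate it had 42.2, 45.3 and 30.1 TPM, lowest in replicate 3. By TMM-scaled CPM, at 165.5, 187.0 and 206.6, replicate 3 was instead the highest. Peg3 encodes a large zinc finger protein. Peg3 (ENSMUSG00000002265, chromosome 7, 6703892 to 6730431, minus strand) had 879, 464 and 281 counts and 4.03, 3.05 and 1.85 TPM, highest in replicate 1 and lowest in replicate 3.

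Snrpn encodes SmN, a relative of the spliceosome core protein SmB made by Snrpb. Snrpn (ENSMUSG00000102252, chromosome 7, 59982495 to 60140219, minus strand) had 765.44, 436.26 and 302.63 estimated counts and 15.73, 12.87 and 8.86 TPM. Its length was 1932 nt in every replicate, that of the single transcript starting at 60005111, so no estimated count was placed on the transcript from the upstream start at 60140219. The counts are fractional because reads were divided with Gm38393, an overlapping record on the same strand that shares 27.28% of the exonic bases of Snrpn. Snrpn took 60.7%, 60.8% and 58.8% of the counts of the Snrpn, Gm38393 and Snurf records, so its level is uncertain by how that division was made. The sharing of reads with Snrpb, whose coding sequence is similar, was not tested. Snrpb had 47.9 ± 5.67 TPM (SD, n = 3), above Snrpn in every replicate.

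Nnat encodes neuronatin, a small membrane protein best known from the developing brain, and lies inside an intron of Blcap on the other strand. Nnat (ENSMUSG00000067786, chromosome 2, 157560078 to 157562522, plus strand) had 34, 10 and 15 counts and 1.32, 0.49 and 0.78 TPM. Replicate 1 was above the limit of 1 TPM and the others below it. Without replicate 2 its mean passes the limit, so that 6 genes are counted in place of 5. Nnat and Blcap share no exonic base.

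The neighbours of these genes, a list of 27, gave a second view of each domain. A mean of at least 1 TPM was reached by 11 of the 27, beside 19.8% of all genes and 44.1% of protein-coding genes. In all 3 replicates 4 had 0 counts, as did 5763 of 21974 protein-coding genes. Snurf was among the 11 through replicate 3 alone, and 10 remained without that replicate. In the Kcnq1ot1 domain the 3 highest were Cd81, a membrane protein of the tetraspanin family, at 65.6 ± 7.9 TPM, Nap1l4, a histone chaperone, at 20.6 ± 3.99, and Tssc4 at 4.27 ± 0.509 (SD, n = 3). They start 243.8, 252.6 and 227.3 kb from Kcnq1ot1, Nap1l4 on the side of Cdkn1c and the others on the opposite side. Closer to it, Cdkn1c at 164.5 kb and Slc22a18 at 177.2 kb were at 0.257 and 0.223 TPM, and Phlda2, a placental growth regulator at 206.6 kb, at 1.91 ± 0.74 TPM (SD, n = 3). Ascl2, a placental transcription factor, had 0.237 TPM, Tspan32 0.467 and Osbpl5 0.19. Genes at high and at low levels were interspersed along the chromosome. Cd81 and Tssc4 lay between Tspan32 and Kcnq1 (0.03 TPM), and Nap1l4 between Phlda2 and Osbpl5.

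**Figure D2:**
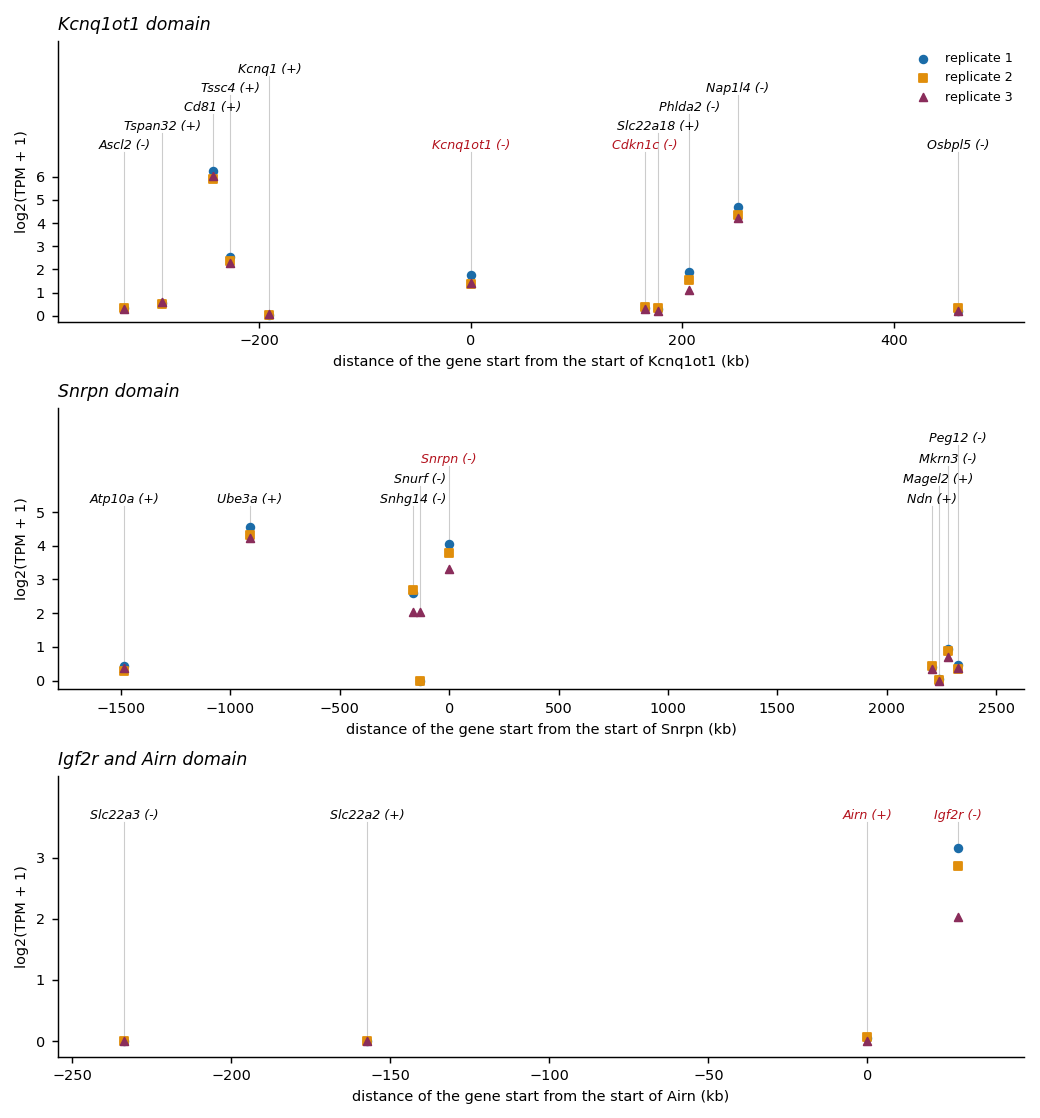
Genes of 3 domains, each at the distance of its annotated start from that of Kcnq1ot1, Snrpn or Airn (kb), with log2(TPM + 1) in each replicate; red names are among the 10 genes and signs give the strand. Cd81, Nap1l4, Ube3a, Snrpn and Igf2r stand above their neighbours, and Slc22a2 and Slc22a3 beside Airn are at 0; the counted Snrpn transcript starts close to Snurf.

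In the Snrpn domain, the homologue of the Prader-Willi and Angelman region, the ubiquitin ligase gene Ube3a was highest at 19.8 ± 2.52 TPM (SD, n = 3). It had 22.63, 19.05 and 17.77 TPM, above the 15.73, 12.87 and 8.86 of Snrpn in all 3 replicates. Gm38393, whose reads were divided with Snrpn, had 8.16, 6.19 and 5.04 TPM, so this order is uncertain by that division. Snhg14, the noncoding host of small nucleolar RNAs downstream of Snrpn, had 5.01, 5.4 and 3.07 TPM. The distant paternally expressed genes of this domain were low. Mkrn3 had 0.787 TPM, Ndn 0.313, Peg12 0.31 and Magel2 0.02, and Atp10a at the other end had 0.287. Beside Igf2r, the transporter genes Slc22a2 and Slc22a3 had 0 counts in every replicate, under the floor of 3 counts, or 0.518 CPM in the shallowest library. Beside Igf2, the insulin gene Ins2 also had 0 counts, and Mrpl23, a mitochondrial ribosomal protein gene beyond H19, had 1.39 ± 0.236 TPM (SD, n = 3).

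In the Peg3 domain, Usp29 had 0.52, 0.39 and 0.25 TPM and lay below Peg3 in every replicate. Zfp264 had 1.46 ± 0.255 TPM (SD, n = 3) and Zim1, the maternally expressed neighbour, 0.11. Blcap, the host of Nnat, had 5.66, 4.05 and 3.65 TPM. Osbpl1a, the neighbour of Impact on the other strand, had 14.51, 10.19 and 9.69 TPM. Impact exceeded it in every replicate, and Nnat was below Blcap in every replicate.

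Ratios within a library set neighbours and relatives side by side, not all of them reciprocally imprinted. They are on the scale of log2 of (TPM + 1), which understates differences between low genes. Igf2r exceeded Airn by 3.10, 2.79 and 2.03 in replicates 1, 2 and 3, a mean of 2.64 ± 0.55 (SD, n = 3). Per length over the pooled counts, 3327 against 2, the ratio was 173.6, with a 95% interval of 48 to 1434.1 for counting error. The lower end of that interval still lay far above 1, with the limit on Airn given above. Cdkn1c was below Kcnq1ot1 in every replicate, with log2 ratios of -1.43, -0.99 and -1.15 and a mean of -1.19 ± 0.22 (SD, n = 3).

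H19 exceeded Igf2 by 0.71, 0.32 and 0.41, a mean of 0.48 ± 0.20 (SD, n = 3), and per length by 3.01-fold (1.9 to 4.85, counting error only). The TPM ranges of the genes did not overlap, and H19 was higher in 3 of 3 replicates. Peg3 exceeded Usp29 by 1.49 ± 0.27, Impact exceeded Osbpl1a by 1.72 ± 0.27 and Kcnq1ot1 exceeded Kcnq1 by 1.48 ± 0.21 (SD, n = 3). With 3 counts of Kcnq1 in all, the ratio of Kcnq1ot1 to it per length was 76.6 (26.2 to 371.4, counting error only). The mean log2 ratio was -0.65 ± 0.24 for Snrpn to Ube3a, -1.89 ± 0.22 for Snrpn to Snrpb and -1.56 ± 0.19 for Nnat to Blcap (SD, n = 3). In each of these comparisons all 3 replicates had the same sign. The sign for Snrpn to Ube3a rests on how reads were divided between Snrpn and Gm38393. An exact permutation test over 3 replicates of 1 group cannot reach a p under 0.05, and none was made.

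**Figure D3:**
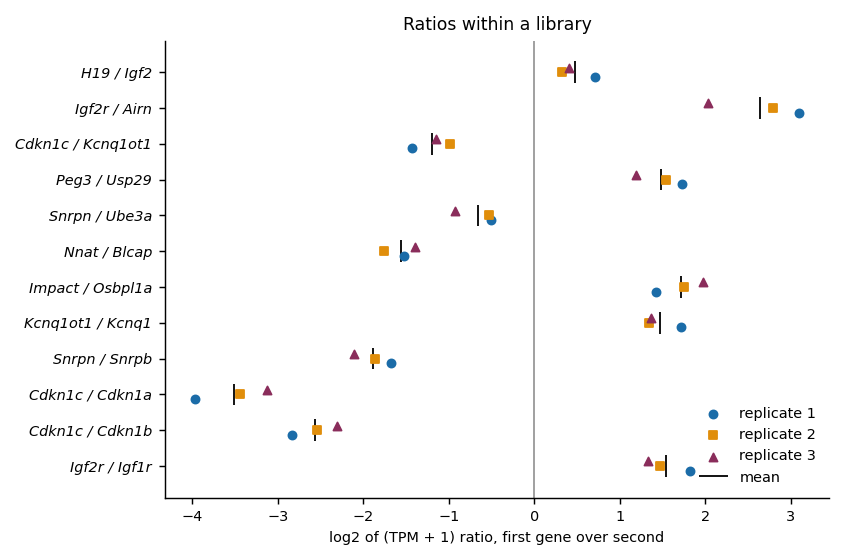
Log2 of the (TPM + 1) ratio of 2 genes within each library, first gene over second, for neighbours and for relatives; points are replicates and bars their mean. Every comparison keeps 1 sign in all 3 replicates, and Igf2r over Airn has the widest spread among those above 0. The sign for Snrpn over Ube3a rests on how reads were divided between Snrpn and Gm38393.

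Whether any of the genes varied between replicates beyond genes of like abundance was tested with edgeR's goodness-of-fit test over 12577 genes. The share called among all genes was 1.84%. Of the 10 genes, 7 passed the filter on low counts and 0 were called at a Benjamini-Hochberg adjusted p under 0.05; Igf2, Airn and Cdkn1c did not pass the filter. At an unadjusted p under 0.05 there was 1, Igf2r (p 0.0367, edgeR adjusted p 0.611), beside 6.96% of all genes. With DESeq2 size factors the count was also 0. Igf2r CPM was 158.5, 160.8 and 82.4, lowest in replicate 3. Its unadjusted p in the edgeR test was 0.0255 without replicate 1, 0.0643 without replicate 2 and 0.789 without replicate 3. Leaving out the replicate that lies apart raises p in any such gene, so the last value is no separate evidence.

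The replicates differed by gene length, and Igf2r and Peg3 followed that pattern while Kcnq1ot1 did not. Among the 830 genes with the longest transcripts, at a mean of 100 counts or more, the median log2 deviation of CPM (TMM-scaled) from the mean of the replicates was 0.11 in replicate 1 and -0.16 in replicate 3. Igf2r, of mean length 8600.3 nt, deviated by -0.52 in replicate 3 and Peg3, of 8158.3 nt, by -0.30. Kcnq1ot1, the longest of the 10, deviated by 0.18 there, opposite in sign to the median of the long genes. Impact, of 1806.6 nt, deviated by 0.15. The part of length in the level of a single gene was not tested. A fit with an offset for the trend with length gave Igf2r an unadjusted p of 0.177 and called 1 of the 7 genes, Kcnq1ot1 (edgeR adjusted p 0.0416, against 0.975 to 1 in its other fits), beside 1.49% of all genes. At a mean of 100 counts or more, only 3 genes were as long as 80215.8 nt, Kcnq1ot1 among them, so the trend was thinly supported at its length. Per length, 3 of the 5 genes at 1 TPM or more (Snrpn, Igf2r and Peg3) were lowest in replicate 3, as were 75.6% of all such genes.

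**Figure D4:**
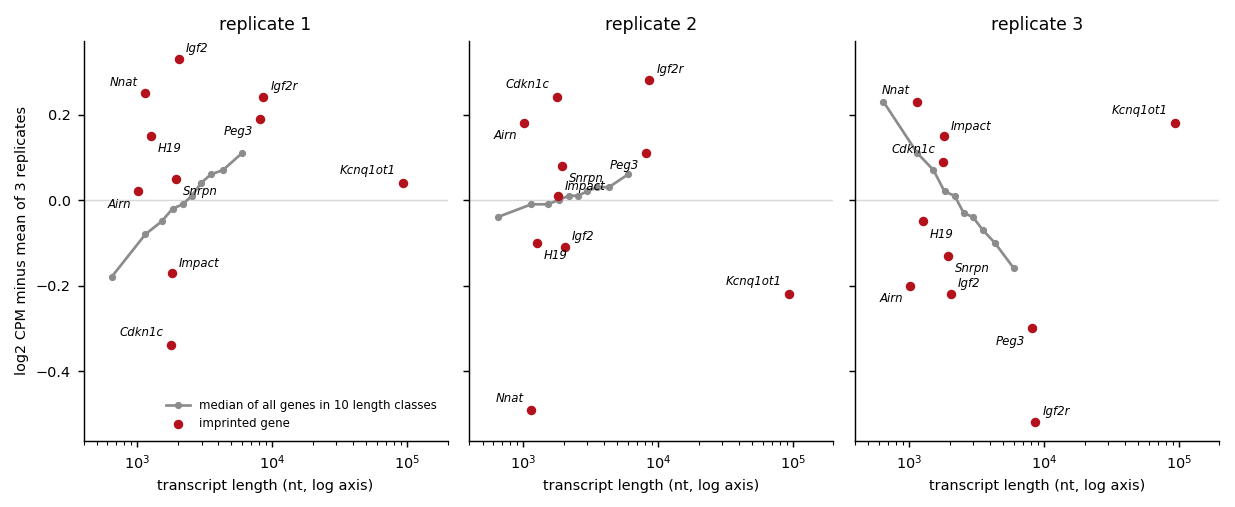
Log2 CPM of each of the 10 genes in a replicate minus its mean over 3 replicates, against transcript length in nt on a log axis; the grey line joins the medians of 10 length classes of all genes averaging 100 counts or more. In replicate 3 Igf2r and Peg3 lie below 0 with the other long genes and Kcnq1ot1 lies above 0.

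Further imprinted genes, a list of 28 from other loci, were mostly present. A mean of at least 1 TPM was reached by 21, beside 19.8% of all genes and 44.1% of protein-coding genes. The median log2(TPM + 1) of the list was 2.28 ± 0.36 (SD, n = 3). The 3 highest were Slc38a4, an amino acid transporter, at 36.5 ± 4.51 TPM, Gnas, which encodes the stimulatory G protein subunit, at 35.8 ± 14.6, and Commd1 at 26.7 ± 1.05 (SD, n = 3). The 3 lowest were Cdh15, Rasgrf1 and Klf14, at 0.0167, 0.00333 and 0 TPM. In the edgeR test of variability, 0 of the 22 that passed the filter were called at an adjusted p under 0.05, where 1.84% of all genes were, and 2 had an unadjusted p under 0.05, where 6.96% of all genes did. These were Peg10 (p 0.00677, edgeR adjusted p 0.211), with 126.9, 120.0 and 56.8 CPM, and Mcts2 (p 0.0391, edgeR adjusted p 0.629), with 8.84, 9.59 and 15.0 CPM; both are named after their values were seen. Some of these genes are imprinted only in certain tissues or transcripts, which a level for the whole gene does not separate.

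Of 13 genes that set or keep imprints, 12 had a mean of at least 1 TPM, beside 44.1% of protein-coding genes. Trim28 was highest at 172.7 ± 69.9 TPM, followed by Uhrf1, which brings DNMT1 to newly replicated DNA, at 37.3 ± 8.87, and Zfp57 at 21.8 ± 3.76 (SD, n = 3). Dnmt3b had 3.3 ± 0.51 TPM, Arid4a 1.88 ± 0.601, and Dppa3, which protects maternal marks in the zygote, 0.47 ± 0.0624 (SD, n = 3). In the insulin-like growth factor pathway, 7 of 13 genes had a mean of at least 1 TPM, beside the same 44.1%. The binding protein gene Igfbp2 had 36.2 ± 3.49 TPM, and Igf2bp1 and Igf2bp2, whose products bind Igf2 mRNA, had 19.9 ± 8.39 and 11.6 ± 4.62 (SD, n = 3). The ligand genes Igf1 and Ins1 had 0.00333 and 0 TPM, and Irs1, a docking protein downstream of the receptors, 0.03. Igf2r exceeded Igf1r, the receptor that signals, by 1.54 ± 0.25 on the log2 scale of (TPM + 1), in 3 of 3 replicates (SD, n = 3).

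**Figure D5:**
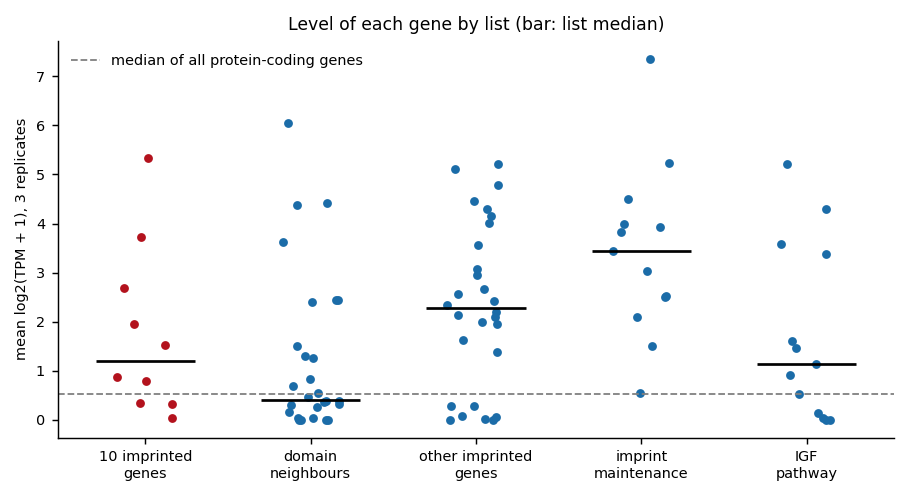
Mean log2(TPM + 1) over 3 replicates of each gene in 5 lists; bars are list medians and the dashed line is the median of all protein-coding genes. The 10 genes spread from near 0 for Airn to above 5 for Impact, and the imprint maintenance genes have the highest median.

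The libraries carried the markers of the labelled cell type. All 8 pluripotency markers had a mean of at least 1 TPM, with Nanog at 182.8 ± 29.9 TPM and Pou5f1 at 149.1 ± 21.7 (SD, n = 3). Since H19, Igf2 and Cdkn1c are abundant in embryonic mesenchyme, and Nnat in neurons, markers of other cells were summed beside them. The 8 fibroblast markers summed to between 1.79 and 4.57 TPM, 5 of them were at or under 3 counts in every replicate, and Lum, Postn, Twist2 and Col3a1 had 0 counts; the highest was Thy1 at 2.5 ± 1.15 TPM (SD, n = 3). The 6 neural markers summed to between 10.7 and 16.2 TPM, mostly from Tubb3, and Dcx had 0 counts. The 8 trophoblast and endoderm markers summed to between 0.54 and 1.02 TPM. The part of such cells in the low levels of H19, Igf2, Cdkn1c and Nnat was not tested, and in these bulk libraries few cells with much RNA and many cells with little cannot be told apart.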

How the data were processed

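Strand-specific libraries were made from ribosome-depleted total RNA, per the labels' protocols. The submitters' processing notes name STAR and RSEM among the tools and mm10 as the build; versions, annotation release and strand setting are not given in the sources used here, so antisense pairs are uncertain. The authors deposited an estimated count (not normalized), TPM and FPKM per gene and library, per the file headers; FPKM was not used. Library totals were 11420425, 6467405 and 5787357 estimated counts. Floors of 3 counts and 95% intervals cover counting error only.

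Gene IDs were matched to GENCODE vM21 (55227 of 55487), and 99.8% of 34056 single-transcript genes had the vM21 length within 1 nt. TPM used is the authors' deposited value; genes of effective length under 100 nt hold 60.3% to 65.8% of it. Variability was tested with edgeR 4.0.16 (R 4.3.3) on counts rounded to whole numbers: goodness of fit to the trended dispersion, intercept only, TMM, filterByExpr. DESeq2 1.42.0 size factors were an alternative. Plots used Python 3.11.15 and matplotlib 3.10.9. Genes named are the 10, their neighbours and the 3 highest and lowest of each other list; genes outside that rule were picked with their values in view. Of the neighbours, 1 neighbour is not reported here. The genes and lists were chosen with earlier results of these data known. The single group allowed no comparison of conditions, and so no likeness of patterns was computed.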

Additional observations from a re-analysis of the deposited data

How the results depend on the processing

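Across 8 results, 57 alternative values were computed (52 planned, 5 chosen after seeing the data); 43 stayed within the allowed spread, 14 moved and 0 reversed. A limit of 5 TPM left 3 of the 10 genes, 4 of the neighbours and 11 of the other imprinted genes. A limit of 1 CPM counted 9 of the 10, beside 25.8% of all genes. The shares of all genes at 5 TPM, or with a replicate left out, are not given here. Those counts therefore do not say whether the lists stand above or below other genes. The median log2 level of the 10 genes became 0.42 with a pseudocount of 0.1, 3.87 by CPM, 2.15 without genes of effective length under 100 nt and 1.95 for protein-coding members alone. With a pseudocount of 0.1 the log2 ratio became 1.29 for H19 to Igf2, 5.41 for Igf2r to Airn and -2.47 for Cdkn1c to Kcnq1ot1; by CPM, which ignores length, the last 2 became 6.90 and -7.81. The offset for gene length called 1 gene as varying, in place of 0; the cause was not tested. Leaving out each replicate in turn gave 5 to 6 of the 10 genes and 10 to 11 neighbours at 1 TPM, a median of 1.05 to 1.31, and ratios of 0.37 to 0.56, 2.41 to 2.94 and -1.29 to -1.07 in the same order. Depth limits Airn, Cdkn1c, Igf2, H19 and Nnat, whose counts do not exceed 34 in any library. No paired analysis was possible because the RNA-seq libraries form 1 group and are compared with no other.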

Other observations

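Several neighbours with few counts had a TPM that did not follow their counts. Zim1 had 7, 6 and 3 counts in replicates 1, 2 and 3 and 0.07, 0.04 and 0.22 TPM, so the replicate with the fewest counts was highest per length; its effective length was 3746.21, 7545.74 and 705.43 nt. Atp10a had 51, 21 and 7 counts and 0.36, 0.21 and 0.29 TPM, with effective lengths of 5281.89, 5271.74 and 1293.57 nt. Snurf had 0, 0 and 5.02 estimated counts and 0, 0 and 3.12 TPM, with an effective length of 84.94 nt in replicate 3, and all of its 216 exonic bases lie in exons of Snrpn and of Gm38393. Its mean of 1.04 TPM puts it among the 11 neighbours at 1 TPM or more on the strength of that replicate alone. Gm38393, chosen after its values were seen, had 495.56, 280.73 and 207.26 counts and 8.16, 6.19 and 5.04 TPM.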
